A study of Capra hircus with 3 samples.

Results

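The miRNAs miR-221 and miR-222 were followed through skin of the Shanbei White cashmere goat in anagen (hair growth), catagen (regression) and telogen (rest). RNA of 10 adult goats was pooled into 1 small RNA library for each stage, so that there was no replicate, and a difference between stages cannot be told apart from a difference between pools or libraries. Skin was cut from the side of the body of both sexes, and the labels give no treatment. Clean reads numbered 15997828 (anagen), 18111912 (catagen) and 27016012 (telogen), collapsed by the authors into distinct sequences, here called tags, with their read counts. A tag was counted for the pair when its first 18 nt were those of a tag the authors annotated to either miRNA, or of the mature miR-222 sequence used for their qPCR primers, whatever followed. These are 2 of the 339 miRNA names in the lists used, and 7 different starts of 18 nt. The starts took in 271 of 1308819 distinct tags in anagen, 265 of 1324013 in catagen and 289 of 2083543 in telogen. These tags carried 35943 reads in anagen, against 21669 in catagen and 40972 in telogen, which is 0.225%, 0.120% and 0.152% of the clean reads, respectively.

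Each miRNA is cut from a hairpin with a 5′ arm (5p) and a 3′ arm (3p), and usually 1 of the arms is kept in the silencing complex. Bases 2 to 8 of the kept arm, the seed, choose the target mRNAs. The genes of miR-221 and miR-222 lie next to each other on the X chromosome and are made as parts of a common primary transcript, and their 3p arms share a seed. Both are best known for lowering p27 (CDKN1B), a brake on the cell cycle, and KIT, the receptor that pigment cells and mast cells depend on, and both are made by endothelial and smooth muscle cells. In the annotation of goat assembly ARS1.2, MIR222 and MIR221 were neighbours on the X chromosome with 0 annotated genes between them, and no miRNA gene other than these 2 lay within 1000000 bases. That assembly is not the one the authors used and serves here for names and order only.

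In the shortened copy of the authors' list used here, the tags of miR-221 covered its 5p arm and a short stretch just outside it, but not its 3p arm. For miR-222 they covered 1 tag of the 5p arm, and the qPCR sequence gave the 3p arm. A second large family of tags shared the first 8 nt of miR-222-3p and differed after them. It was taken here as miR-221-3p, which is known to carry this seed, although no sequence list used here names it, and its values are outside the rule above. Together the 2 families held 98.9% of all reads that began with these 8 nt in anagen and 99.5% in catagen, with 99.4% in telogen. The next most frequent start had 60, 16 and 28 reads. Leading tags were laid against each other without gaps, at the shift with the most pairs, with G-U pairs counted. The miR-221-5p tag and that of this family paired at 18 of 20 facing positions (2 of them G-U). With miR-222-3p, the miR-221-5p tag paired at 12 of 19 (3 of them G-U). The leading miR-222-5p tag paired with either, at 19 of 21 positions with this family and 16 of 22 with miR-222-3p. Pairing alone therefore did not assign miR-222-5p, and it cannot settle the name of this family. The sequences below are the leading tags of each arm, as deposited (DNA letters, 5′ to 3′, seed in capitals), and show where the 2 3p arms part after their shared start.

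miR-222-3p, 23 nt: aGCTACATctggctactgggtct
miR-222-3p, 22 nt: aGCTACATctggctactgggtc
miR-222-3p, 21 nt, the qPCR sequence: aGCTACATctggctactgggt
miR-221-3p, 22 nt: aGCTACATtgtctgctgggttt
miR-221-3p, 23 nt: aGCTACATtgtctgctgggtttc
miR-221-5p, 22 nt: aCCTGGCAtacaatgtagattt
miR-222-5p, 23 nt: gGCTCAGTagccagtgtagatcc

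The leading tags of the 3p arms were equal in 11 of 22 positions, of which the first 8 were fixed by the search. The seed of miR-221-5p is a different one. No other arm in the lists used here carried the seed of miR-222-3p.

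The level of miR-222-3p was highest in anagen and lowest in catagen, while that of miR-221-3p, scaled to clean reads, differed between libraries by no more than counting error. Under other scalings miR-221-3p was not flat, with a log2 ratio of anagen over telogen of -0.30 when scaled to the reads of all listed arms, and of anagen over catagen of 0.28 with size factors from the median of ratios. Levels are reads scaled to 1000000 clean reads of the library (TPM, as the authors use the term) with exact 95% Clopper-Pearson intervals, which cover counting error only, as PCR copies of a molecule are counted as separate reads. miR-222-3p had 30663 reads in anagen (1917 TPM, 1895 to 1938), against 16731 in catagen (924 TPM, 910 to 938) and 34861 in telogen (1290 TPM, 1277 to 1304). The 3 intervals do not overlap. miR-221-3p had 19305 reads in anagen (1207 TPM, 1190 to 1224), against 21929 in catagen (1211 TPM, 1195 to 1227) and 32355 in telogen (1198 TPM, 1185 to 1211). Its 3 intervals overlap, and on clean reads no pair of libraries could be told apart. In bulk skin, fewer cells of a type and less RNA per cell cannot be told apart either.

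miR-221-5p, the arm that is less often kept, was highest in anagen and, on clean reads, lowest in telogen. It had 5277 reads in anagen (330 TPM, 321 to 339), against 4933 in catagen (272 TPM, 265 to 280) and 6106 in telogen (226 TPM, 220 to 232), with no overlap of intervals. Scaled to the reads of all listed arms, its log2 ratio of catagen over telogen was -0.045, so that the order of these libraries depends on the scaling. miR-222-5p was at the limit of detection, with 2 reads in anagen, against 3 in catagen and 3 in telogen, at or below the 3 reads that a count of 0 allows. Those 3 reads are 0.188 TPM in anagen and 0.166 TPM in catagen, with 0.111 TPM in telogen. The annotated tag just outside the 5p arm of miR-221 had 1, 2 and 2 reads, respectively.

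**Figure D1:**
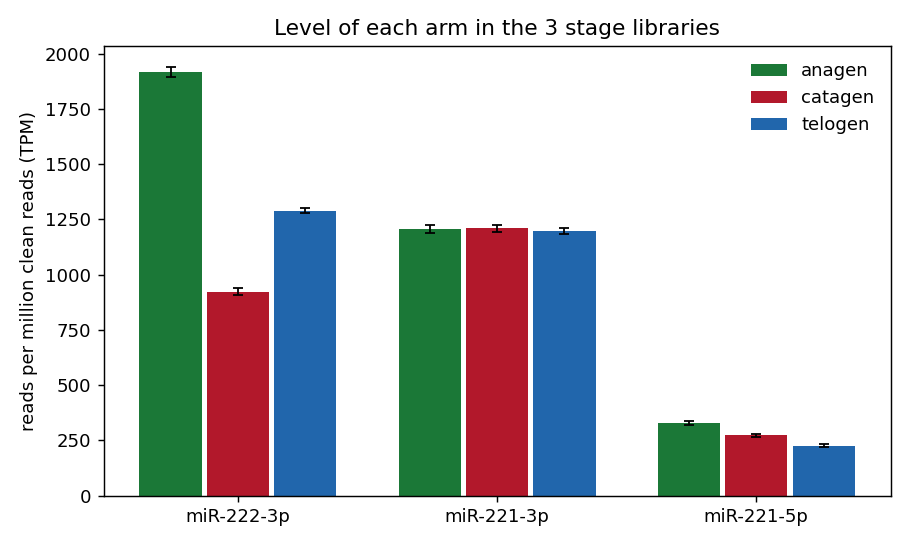
Level of miR-222-3p, miR-221-3p and miR-221-5p in TPM (reads scaled to 1000000 clean reads) in the anagen, catagen and telogen library. Bars start at 0 and error bars are exact 95% intervals of counting error. miR-222-3p ranged from 924 to 1917 TPM, and miR-221-3p from 1198 to 1211 TPM.

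Every pair of libraries was then compared over all listed miRNA arms, with miR-221-3p added, by the exact two-sided Audic-Claverie test, the test of the study. An arm was called if its TPM differed by more than 1 on the log2 scale with p under 0.01. The test compares reads of 2 libraries and not stages. Of 301 arms tested between anagen and catagen, 84 were called (27.9%), of which 67 were lower in anagen (22.3%) and 17 higher (5.65%). With size factors from the median of ratios the calls were 35 lower and 24 higher. On clean reads miR-222-3p was among the 17, just past the limit, with a log2 ratio of anagen over catagen of 1.05 (exact 95% interval 1.03 to 1.08). Its p was below the smallest value that was written out. The median log2 ratio of the 154 arms with at least 100 reads in both libraries was -0.33, with quartiles of -0.78 and 0.08. miR-221-3p was at -0.0048 (-0.03 to 0.02, exact test, p = 0.740, adjusted p = 0.790 by Benjamini-Hochberg), and miR-221-5p at 0.28 (0.22 to 0.33, exact test, p = 3.88e-22), short of a call.

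Between anagen and telogen none of the 3 arms was called, where 75 of 298 arms were (25.2%), 6.04% higher and 19.1% lower in anagen (18 and 57 arms, or 13 and 90 when scaled to the reads of all listed arms). The log2 ratio of anagen over telogen was 0.57 for miR-222-3p (0.55 to 0.59, p again too small to be written out), 0.55 for miR-221-5p (0.49 to 0.60, exact test, p = 1.07e-88) and 0.011 for miR-221-3p (-0.01 to 0.04, exact test, p = 0.404). Scaled to the reads of all listed arms, it was 0.26 for miR-222-3p and 0.23 for miR-221-5p. In the comparison of catagen with telogen, 40 of 299 arms were called (13.4%), 7.69% higher and 5.69% lower in catagen (23 and 17 arms, or 18 and 29 when scaled to the reads of all listed arms), and again none of these 3. miR-222-3p was lower in catagen than in telogen (log2 ratio -0.48, -0.51 to -0.46, exact test, p = 2.09e-286), and miR-221-5p was higher (0.27, 0.21 to 0.32, exact test, p = 2.82e-22, but -0.045 when scaled to the reads of all listed arms). miR-221-3p did not differ beyond counting error on clean reads (0.016, -0.01 to 0.04, exact test, p = 0.212), but was at -0.30 when scaled to the reads of all listed arms and at -0.14 with size factors from the median of ratios.

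The call of miR-222-3p between anagen and catagen did not survive every setting. It held with size factors from the median of ratios, at a log2 ratio of 1.33, and with edgeR's exact test at an assumed biological coefficient of variation of 0.1 (unadjusted p = 3.61e-07). With tags of 21 nt or longer the log2 ratio was 0.96. With edgeR's exact test and an assumed coefficient of 0.4 it was 1.05 with an unadjusted p of 0.211, and 11 arms in all were then called. Reads of the skeletal muscle miRNAs miR-1, miR-206 and miR-133 made up 0.412% of the anagen reads, 7.88% of the catagen reads and 2.14% of the telogen reads. With these taken out of the library totals, a setting added after the data were seen, the log2 ratio was 0.94.

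**Figure D2:**
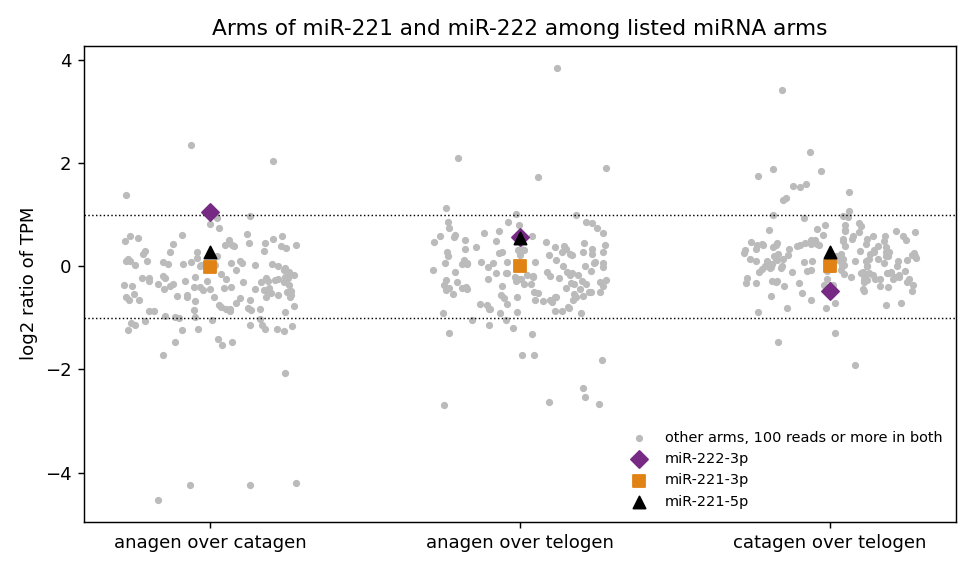
Log2 ratio of TPM for each pair of libraries (grey points, listed miRNA arms with at least 100 reads in both; larger symbols, miR-222-3p, miR-221-3p and miR-221-5p; dotted lines, the limits of 1 and -1 for a call). miR-222-3p is past the limit only in anagen over catagen, at 1.05.

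Both miRNAs of the cluster are read in the same library, so the ratio of their reads does not depend on scaling. For each read of miR-221-3p there were 1.59 reads of miR-222-3p in anagen (exact 95% interval 1.56 to 1.62), against 0.763 in catagen (0.748 to 0.779) and 1.08 in telogen (1.06 to 1.09). Thus miR-222-3p held 61.4% of the reads of the 2 arms in anagen and 43.3% in catagen, and the more abundant member of the pair changed between these libraries. The anagen ratio was 2.08 times that of catagen (95% Wald interval 2.03 to 2.14) and 1.47 times that of telogen (1.44 to 1.51), and the catagen ratio was 0.708 times that of telogen (0.691 to 0.726). When only the arms held by the sequence lists were set against each other, that is, miR-222-3p over miR-221-5p, the ratio was 5.81 in anagen, against 3.39 in catagen and 5.71 in telogen.

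The arms of miR-221 also shifted against each other. There were 3.66 reads of the 3p arm for each of the 5p arm in anagen (3.55 to 3.77), against 4.45 in catagen (4.31 to 4.59) and 5.30 in telogen (5.16 to 5.45). Which arm the change lies in depended on the scaling. For catagen over telogen the log2 ratio was 0.016 for the 3p arm and 0.27 for the 5p arm on clean reads, and -0.30 and -0.045, respectively, when scaled to the reads of all listed arms. For miR-222 the 5p arm held too few reads for a ratio to be compared.

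**Figure D3:**
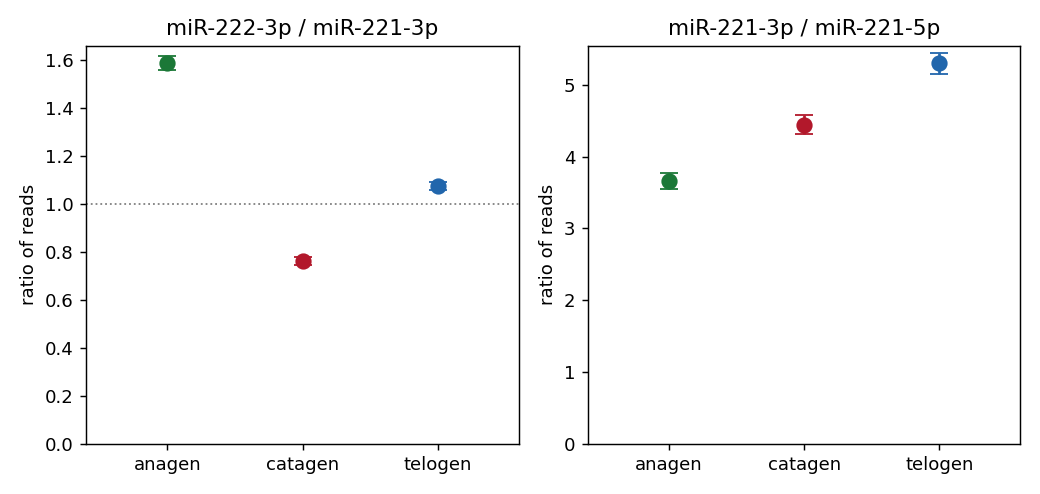
Ratio of reads within each library, with exact 95% intervals of counting error (left, miR-222-3p over miR-221-3p, dotted line at equal reads; right, miR-221-3p over miR-221-5p). The left ratio is 1.59 in anagen and 0.763 in catagen, with 1.08 in telogen, and the right one is 3.66, 4.45 and 5.30.

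Most reads of miR-222-3p ran past the 21 nt of the qPCR sequence. Reads over 21 nt were 81.8% in anagen (95% Wilson interval 81.3 to 82.2), against 86.1% in catagen (85.6 to 86.6) and 87.7% in telogen (87.4 to 88.1), and 23 nt was the most frequent length in each library. The 21-nt sequence itself had 2985 reads in anagen (187 TPM), against 1930 in catagen (107 TPM) and 2879 in telogen (107 TPM), at most 11.5% of the arm. miR-221-3p and miR-221-5p were most often 22 nt, and reads over 21 nt made up 95.8% to 96.7% of the former and 96.7% to 97.2% of the latter.

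Short reads of miR-222-3p were unevenly spread over the libraries. Reads under 21 nt were 8.10% of the arm in anagen (7.80 to 8.41), against 1.68% in catagen (1.5 to 1.89) and 3.61% in telogen (3.42 to 3.82). Over the reads of all listed arms the same shares were 5.25%, 1.90% and 2.89%, in the same order, while those of miR-221-3p were 0.808%, 0.898% and 0.495%. The part of this library-wide difference in the result for miR-222-3p was not tested beyond the setting of 21 nt or longer given above.

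**Figure D4:**
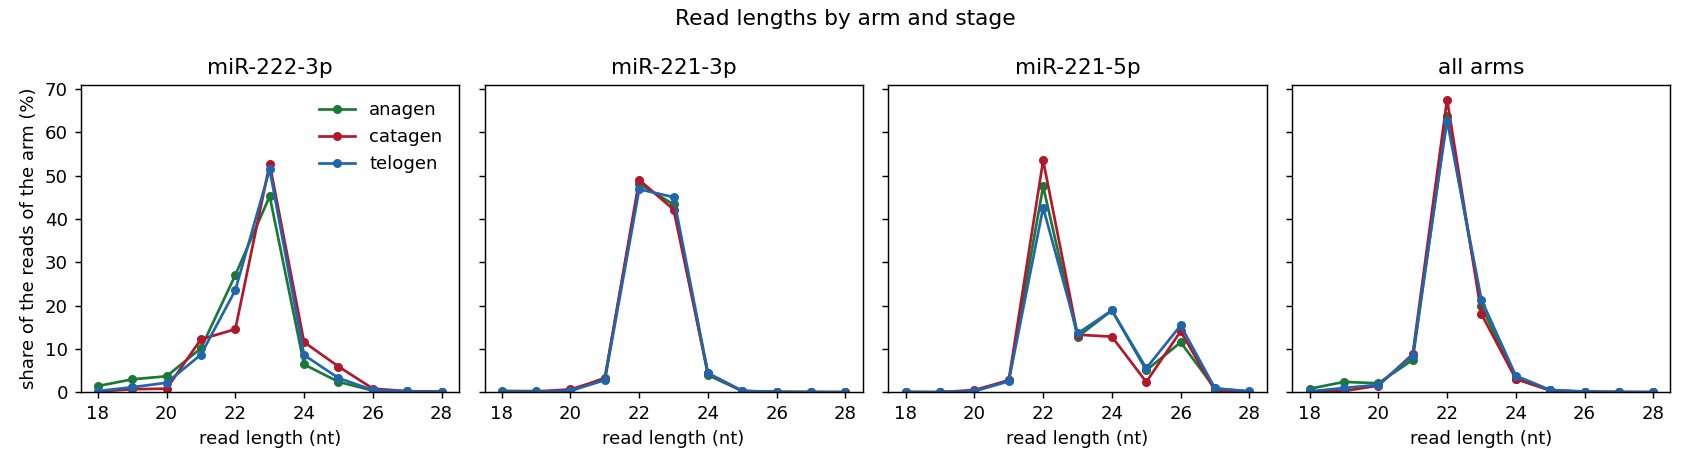
Share of the reads of each arm by read length (18 to 28 nt) in anagen, catagen and telogen, with all listed arms on the right. miR-222-3p peaks at 23 nt and the other panels at 22 nt, and in anagen miR-222-3p has the largest share under 21 nt, at 8.10%.

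The size of the difference in miR-222-3p depended on the length of the reads. The log2 ratio of anagen over catagen was 3.14 at 19 nt (exact 95% interval 2.87 to 3.43) and 3.21 at 20 nt (2.96 to 3.48). It was 0.79 at 21 nt (0.70 to 0.87), 1.95 at 22 nt (1.88 to 2.01) and 0.83 at 23 nt (0.79 to 0.87). At 24 nt it was 0.20 (0.11 to 0.29) and at 25 nt it was -0.25 (-0.39 to -0.11), the level being higher in catagen. At 26 nt it was -0.10 (-0.47 to 0.26), with no difference beyond counting error. For miR-221-3p at 21 to 25 nt, the lengths with at least 50 reads in every library, the same ratio lay between -0.16 at 24 nt (-0.30 to -0.02) and 0.15 at 25 nt (-0.41 to 0.72). Its shorter reads were few and uneven, with 60, 20 and 28 reads at 18 nt in anagen, catagen and telogen, 47, 32 and 23 at 19 nt, and 49, 145 and 109 at 20 nt. miR-221-5p had its own pattern, with 0.10 at 22 nt (0.03 to 0.18), 0.83 at 24 nt, 1.37 at 25 nt and -0.01 at 26 nt.

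The 22-nt tag aGCTACATctggctactgggtc differed most between anagen and catagen among the 4 most read tags of miR-222-3p. It had 7311 reads in anagen (457 TPM), against 1662 in catagen (91.8 TPM) and 7229 in telogen (268 TPM), with a log2 ratio of anagen over catagen of 2.32 (2.24 to 2.39). The 23-nt tag, longer by 1 base, had 12082 reads in anagen (755 TPM), against 7351 in catagen (406 TPM) and 15856 in telogen (587 TPM), with a ratio of 0.90 (0.85 to 0.94). The tag next after these 4, of 20 nt, differed more, with 1128, 138 and 759 reads and a ratio of 3.21 (2.95 to 3.48). The 22-nt tag was 23.8% of the arm in anagen, against 9.93% in catagen and 20.7% in telogen. The leading tag of miR-221-3p, in contrast, made up 42.1%, 44.3% and 42.9% of its arm.

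Set beside each other at the same length, the arms kept the order anagen, telogen, catagen from 18 to 24 nt, but not from 25 to 27 nt. At 22 nt there were 0.893 reads of miR-222-3p for each of miR-221-3p in anagen (0.866 to 0.919), against 0.226 in catagen (0.217 to 0.237) and 0.542 in telogen (0.527 to 0.556). At 23 nt the ratios were 1.66, 0.954 and 1.23, and at 24 nt they were 2.59, 2.02 and 2.11. The intervals of catagen and telogen overlapped at 24 nt (1.87 to 2.18 and 1.98 to 2.25) and at 21 nt (2.72 to 3.24 and 3.1 to 3.6). At 25 nt catagen was highest (13.4, 17.8 and 10.4 in anagen, catagen and telogen), and at 26 nt telogen was (9.67, 8.29 and 11.7), where miR-221-3p had at most 17 reads in a library. At 27 nt telogen was highest again (6.1, 3.9 and 14.2), with at most 10 reads of miR-221-3p.

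**Figure D5:**
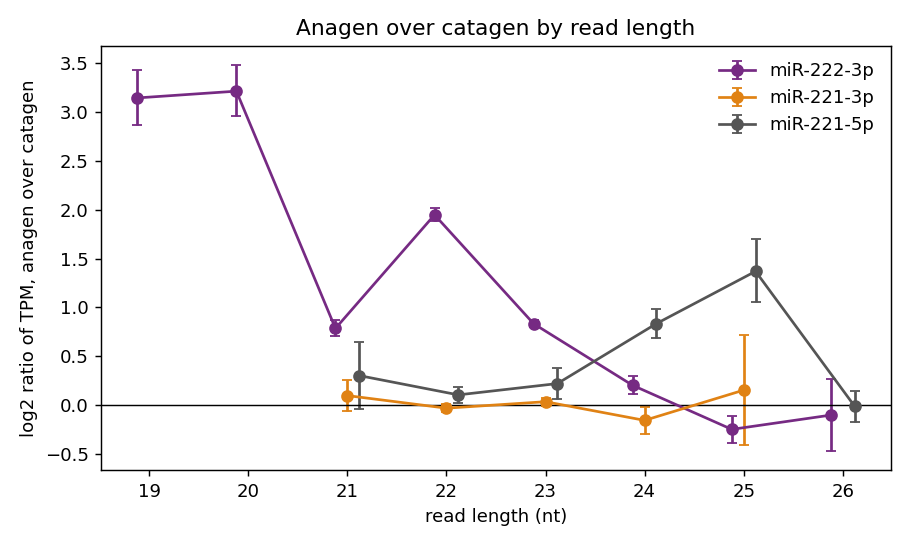
Log2 ratio of TPM, anagen over catagen, by read length for each arm (lengths with at least 50 reads in every library; error bars, exact 95% intervals of counting error; points offset sideways). miR-222-3p runs from 3.21 at 20 nt to -0.25 at 25 nt, while miR-221-3p, shown from 21 to 25 nt, lies between -0.16 and 0.15.

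The 3′ ends were also sorted by whether a tag followed the most frequent next base at each step. This path was aGCTACATctggctactgggtctctt for miR-222-3p and aGCTACATtgtctgctgggtttct for miR-221-3p. No genome was used, so that a base off the path may be an added base, a read error or a variant. Reads off the path were 13.9% of miR-222-3p in anagen (95% interval 13.5 to 14.3), against 23.5% in catagen (22.9 to 24.2) and 15.0% in telogen (14.6 to 15.4). In level they differed less than the rest, at 266 TPM (anagen), 217 TPM (catagen) and 194 TPM (telogen), against 1651, 706 and 1097 TPM for reads on the path. For these on-path reads the log2 ratio of anagen over catagen was 1.22 (1.19 to 1.26), and for those off the path it was 0.29 (0.23 to 0.35).

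Off-path reads of miR-221-3p were 27.8% in anagen, against 26.9% in catagen and 25.4% in telogen. Most of them left the path by a single last base, which was most often T (10.2%, 11.1% and 11.0% of all reads of the arm) or A (7.97%, 8.16% and 7.08%). The tag aGCTACATtgtctgctgggtttt, with such a last T, had 1975, 2441 and 3557 reads, respectively. For miR-221-5p the off-path share was low, from 4.18% in catagen to 4.95% in telogen.

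The 5′ ends, which set the seed, were nearly uniform. Among tags with a start moved by up to 2 nt, those at the usual start were 99.8% of miR-222-3p in anagen and 99.8% in catagen, with 99.9% in telogen. For miR-221-3p the shares were 99.5%, 99.8% and 99.9%, and for miR-221-5p 98.8%, 98.9% and 98.9%. Tags with 1 mismatch in their first 18 nt were not counted, and made up 1.59% of their own reads and those of miR-222-3p together in anagen, against 0.624% in catagen and 0.893% in telogen.

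Over the listed arms and miR-221-3p, 153 arms had at least 100 reads in every library. Of these, 13 had the order of miR-222-3p, namely anagen, telogen, catagen from highest to lowest, itself included. By the Euclidean distance between log2 TPM centred over the 3 libraries, the arms nearest to miR-222-3p were arms of miR-125b-2 (distance 0.29), miR-27b (0.33), miR-1247 (0.37), miR-183 (0.44) and miR-500/miR-502a (0.45). miR-221-3p, its neighbour in the genome, ranked 37 of 152 by this distance (0.75, against a median of 1.05). Nearest to miR-221-3p were arms of miR-106b (0.038), miR-141 (0.055), miR-24-2 (0.087), miR-423 (0.091) and miR-452 (0.11). With 3 libraries such a likeness is a description only.

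Markers of cell types that are known to make the pair, or that could differ in amount between skin pieces, were read in the same libraries. Their sums hold only tags with a start in the shortened list, so that they can miss the most read tags of a miRNA and are not the full level of a cell type's miRNAs. The endothelial miR-126 was at 38.9 TPM in anagen and 32.0 in catagen, with 37.1 in telogen, and was not called in any pair. Its log2 ratio was 0.28 for anagen over catagen (0.12 to 0.45), and its anagen and telogen levels could not be told apart (0.07, -0.07 to 0.22). The listed smooth muscle starts, of miR-143 and miR-145, summed to 335, 123 and 123 TPM, of which 282, 55.3 and 66.0 TPM were a single arm of miR-143. miR-145 ran the other way, lowest in anagen at 26.6, 39.9 and 35.6 TPM. In the authors' own table of abundant miRNAs the count of miR-143 is far higher in every stage. The listed starts therefore miss most of its reads. Per clean read, the authors' counts of miR-143 were highest in anagen and lowest in catagen, the order of miR-222-3p. The single arm of miR-143 was the only 1 of the 4 arms of the list called between anagen and catagen, and between anagen and telogen, where 27.9% and 25.2% of all arms were called. The level of miR-122, the miRNA of liver and serum, was 24.8, 1.99 and 1.22 TPM, highest in anagen like miR-222-3p.

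Neither miR-122 nor the sums of the remaining lists had the order anagen, telogen, catagen of miR-222-3p. Red blood cell miRNAs (miR-451, miR-144 and miR-486) summed to 1312 TPM in anagen, against 2137 in catagen and 878 in telogen. Within the list, the main arm of miR-144 was highest in anagen (104, 76.4 and 7.18 TPM) and miR-486 lowest there (335, 779 and 438 TPM). Leukocyte miRNAs (miR-142 and miR-223) summed to 87.1, 106 and 168 TPM. The epithelial list, mostly an arm of miR-205, summed to 1050, 1846 and 1927 TPM. A second, rarer arm of miR-205 went against this sum, with 14.5, 3.53 and 13.3 TPM. Like miR-222-3p it was lowest in catagen and called between anagen and catagen (log2 ratio 2.04), but its anagen and telogen levels could not be told apart (0.12, -0.12 to 0.36). The fibroblast list, almost all a joint arm of miR-199a and miR-199c, summed to 12535, 22727 and 18012 TPM, and miR-211 of melanocytes to 14.2, 19.4 and 7.85 TPM. Skeletal muscle miRNAs summed to 4117, 78789 and 21405 TPM. This sum and that of the fibroblast list had the reverse order of miR-222-3p. So did 49 of the 153 arms with at least 100 reads in every library. Of the markers listed, miR-150 and miR-203 were not found by name in the lists used, miR-133b was found only jointly with miR-133a, and the part of any cell type in the levels of miR-222-3p and miR-221-3p was not tested.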

How the data were processed

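Small RNA of pooled goat skin was sequenced, with 1 library for each of 3 stages. The authors' filters covered read quality, the adapters at both ends, poly(A), the presence of an insert and a minimum length of 18 nt. Each distinct tag (18 to 44 nt) was deposited with its raw read count and length. No alignment enters these counts. Program versions for these filtering steps were not given in the sources used here.

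Tags were assigned by their first 18 nt to the starts listed by the authors, of which the copy used is shortened. A start listed for several miRNAs formed a joint arm, and starts of 1 miRNA shifted by up to 4 nt formed 1 arm. This gave 481 arms, with miR-221-3p added. Its source was planned to be a reference table of miRNA sequences, which was not used here, so its tags were found by the first 8 nt of miR-222-3p. Arms below 1 TPM in both of 2 libraries were not tested, as in the study, and a value of 0 was set to 0.01 TPM. The Audic-Claverie test and exact intervals were computed with scipy 1.17.1 and tested on simulated data. A quasi-likelihood model needs replicates, so edgeR 4.0.16 was run only as an exact test with an assumed variation. The members and lists were chosen with earlier results of these data known. Arms of the 2 miRNAs, nearest patterns, markers, same-seed miRNAs and genomic neighbours were named by a written rule. The alternatives were other scalings, length limits, starts, minimums and tests.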

Additional observations from a re-analysis of the deposited data

How the results depend on the processing

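Of 90 log2 ratios of the 3 arms under another setting, 79 kept their direction and their side of the limits. The miR-222-3p ratio of anagen over catagen was no longer called when tags under 21 nt were dropped (0.96) or with the most abundant tag only (0.90), with skeletal muscle miRNAs taken out of the totals (0.94, chosen after seeing the data) and with edgeR's exact test with a coefficient of variation of 0.4 (1.05). Its direction was the same in every pair under every setting run. The ratios of miR-221-3p changed sign. Scaled to the reads of the miRNA table it was -0.30 for anagen over telogen and -0.30 for catagen over telogen, where miR-221-5p was -0.045. This scaling shifts all arms by -0.32 for anagen over telogen and -0.31 for catagen over telogen. With size factors from the median of ratios, which shift all arms by 0.28 for anagen over catagen, 0.12 for its ratio over telogen and -0.16 for that of catagen over telogen, it was 0.28 for anagen over catagen and -0.14 for catagen over telogen. It was -0.018 for anagen over telogen with the most abundant tag only and -0.014 with the muscle miRNAs taken out. None of these reached the limit for a call, but the level of miR-221-3p is flat only on the scale of all clean reads.

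When 100 reads were required in each library, 29 of 154 arms were called between anagen and catagen (18.8%), 21 of 155 between anagen and telogen (13.5%) and 15 of 172 between catagen and telogen (8.72%), against 84 of 301, 75 of 298 and 40 of 299. With the coefficient of variation of 0.4 the counts were 11, 17 and 3. Scaled to the reads of the miRNA table they were 84, 103 and 47, and with the median of ratios 59, 71 and 41. The ratio of miR-222-3p to miR-221-3p was 1.47 in anagen and 1.04 in telogen with tags of 21 nt or longer, and 1.49 and 1.14 with the most abundant tag only. With only the arms held by the sequence lists, a setting chosen after seeing the data, miR-221-5p took the place of miR-221-3p. The ratio of miR-222-3p to miR-221-5p was 5.81 (anagen), 3.39 (catagen) and 5.71 (telogen). The ratio of miR-221-3p to miR-221-5p was 3.30 in anagen and 3.73 in catagen with the most abundant tag only. Counted over distinct tags, the share over 21 nt in anagen, catagen and telogen was 91.4%, 94.6% and 92.0% for miR-222-3p, 89.7%, 87.9% and 90.9% for miR-221-3p, and 88.1%, 84.7% and 84.7% for miR-221-5p. The cause of these differences was not tested.

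Settings that need the hairpin or a reference table of mature sequences were not run. Shifted starts were counted instead by a search chosen after seeing the data. No paired analysis was possible because each stage has a single library. Without replicates the spread between animals is unknown, and depth does not limit the 3p arms but leaves miR-222-5p at the limit of detection.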
